A study of Mus musculus with 8 samples.

Results

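The genes of respiratory complexes I and II were examined in the hippocampus of wild-type mice and of mice lacking Mbd2, a protein that binds methylated CpG dinucleotides. Members were taken by symbol: every Nduf gene of the a, b, c, s, v and af series and the genes Sdha to Sdhd, with pseudogenes left out. This gave 47 of the 19201 genes in the deposited table, of which 40 encode subunits (36 Nduf and 4 Sdh) and 7 encode assembly factors of complex I (Ndufaf). Total RNA depleted of ribosomal RNA was sequenced in 8 libraries, 4 from wild-type C57BL/6 mice (labelled Control) and 4 from Mbd2-/- mice on a C57BL/6 background. No treatment is named in the labels. All mice were 10 to 12 weeks old and bred from heterozygous parents, and each library pooled the bilateral hippocampi of a pair of mice. The deletion was present in every cell from conception and came from a single mutant line, so effects in hippocampal cells cannot be told apart from effects of its absence elsewhere.

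Complex I (NADH:ubiquinone oxidoreductase) takes electrons from NADH in its peripheral arm, which stands in the mitochondrial matrix, and pumps protons through its membrane arm. Its core subunits carry the flavin, the iron-sulfur clusters and the proton channels, and the channel-forming ones are encoded by mitochondrial DNA. Accessory subunits surround the core, and assembly factors join it only while it is being built. Complex II (succinate dehydrogenase) belongs to both the respiratory chain and the tricarboxylic acid cycle and pumps no protons. Neurons depend on this chain for most of the ATP used at synapses. Mitochondrially encoded subunits were not analysed here.

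Promoters of genes for the respiratory chain are known for CpG-rich sequence and for sites of NRF1, of ETS factors such as GABPA, and of YY1. RefSeq windows on build GRCm38.p6, from 250 bases before to 50 bases after the annotated start, were found for 40 members (42 windows). Their median CpG number was 20, against 7 over all 32851 windows of the same length. The NRF1 letters GCGCATGCG, searched on both strands, stood in 4 of the 42 windows (9.52%) and in 1.75% of all windows. The ETS letters CCGGAAG stood in 7 windows (16.7%, against 8.86%) and the YY1 letters AAGATGGCG in 5 (11.9%, against 1.4%). No member window held more than 1 of these 3, so 16 windows (38.1%, against 11.4%) held any of them. Each of the 3 strings itself contains a CpG, and no comparison was made with windows of like CpG number. Windows are shown for the 3 complex II genes that had one (Sdhc did not) and for 1 complex I gene with each of the other motifs. In the comparison of genotypes, 12 of the 16 genes with any of these letters were called higher, and 21 of the 24 with none. Over all tested genes 12.0% were called higher, and the difference by motif was not tested. Not called were Ndufs3 and Ndufaf1 of the 7 genes with the ETS letters, Ndufaf4 with the NRF1 letters and Ndufa9 with the YY1 letters. The motif, on either strand, is in capitals, and each window reads along the strand of its gene.
Sdha (chr13:74350191-74350490, minus strand): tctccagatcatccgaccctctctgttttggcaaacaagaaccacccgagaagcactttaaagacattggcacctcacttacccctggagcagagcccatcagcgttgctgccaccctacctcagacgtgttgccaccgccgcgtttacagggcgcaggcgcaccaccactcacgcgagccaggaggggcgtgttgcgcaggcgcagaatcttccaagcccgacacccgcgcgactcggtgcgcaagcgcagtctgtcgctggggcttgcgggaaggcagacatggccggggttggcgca
Sdhb (chr4:140961021-140961320, plus strand): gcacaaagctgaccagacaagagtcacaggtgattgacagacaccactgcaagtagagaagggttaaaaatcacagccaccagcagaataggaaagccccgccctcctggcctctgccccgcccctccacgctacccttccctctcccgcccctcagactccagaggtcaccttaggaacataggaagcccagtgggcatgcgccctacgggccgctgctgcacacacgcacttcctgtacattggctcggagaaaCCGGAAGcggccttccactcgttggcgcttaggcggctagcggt
Sdhd (chr9:50603800-50604099, minus strand): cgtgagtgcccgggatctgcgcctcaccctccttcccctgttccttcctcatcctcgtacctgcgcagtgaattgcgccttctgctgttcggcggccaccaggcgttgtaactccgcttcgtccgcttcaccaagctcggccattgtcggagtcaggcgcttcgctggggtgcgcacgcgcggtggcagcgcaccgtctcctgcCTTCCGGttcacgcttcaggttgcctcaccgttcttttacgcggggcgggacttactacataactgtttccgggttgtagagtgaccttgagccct
Ndufa8 (chr2:36049289-36049588, minus strand): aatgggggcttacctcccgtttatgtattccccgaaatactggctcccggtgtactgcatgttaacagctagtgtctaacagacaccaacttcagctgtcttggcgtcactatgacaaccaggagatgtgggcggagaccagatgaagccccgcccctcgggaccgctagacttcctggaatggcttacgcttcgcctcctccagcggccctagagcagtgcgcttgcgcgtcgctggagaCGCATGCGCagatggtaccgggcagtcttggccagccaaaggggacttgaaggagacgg
Ndufs7 (chr10:80249199-80249498, plus strand): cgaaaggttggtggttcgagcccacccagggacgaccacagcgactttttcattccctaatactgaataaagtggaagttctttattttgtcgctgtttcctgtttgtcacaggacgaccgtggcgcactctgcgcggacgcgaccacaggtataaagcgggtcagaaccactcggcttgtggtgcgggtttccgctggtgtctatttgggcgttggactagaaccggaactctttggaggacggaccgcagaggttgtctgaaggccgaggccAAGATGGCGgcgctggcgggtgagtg
Sdha held none of these letters, Sdhb and Sdhd held the ETS letters, Ndufa8 held the NRF1 letters and Ndufs7 held the YY1 letters. A match describes the sequence and does not show a bound site.

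Values are normalized counts, that is, reads divided by the size factor of the library. All 47 members passed the minimum mean of 10 normalized counts, and tests were made with limma on log2(normalized count + 1) over 14504 genes with Benjamini-Hochberg adjustment, a gene being called at an adjusted p under 0.05. The libraries held 8439570 to 23790825 reads in wild-type and 8087750 to 14020765 in Mbd2-/- mice, and 1 read was worth 0.531 to 1.59 normalized counts. Mbd2 itself measured 295.3, 362.6, 371.0 and 354.3 normalized counts in the wild-type libraries and 243.9, 239.6, 339.5 and 217.2 in the Mbd2-/- libraries. Mbd2-/- replicate 3 thus lay inside the wild-type range. The log2 fold change was -0.43 (SE 0.12, adjusted p = 0.0174), and the exact two-sided permutation test over the 8 libraries gave p = 0.0571. The call was lost without wild-type replicate 3, Mbd2-/- replicate 1 or Mbd2-/- replicate 2 (adjusted p = 0.0542 to 0.0625 in limma). The allele keeps its first exon, so reads summed over the gene need not reach 0. Mbd2-/- replicate 4 stood apart from the other 3 Mbd2-/- libraries in most members, and results without it are given below.

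Of the 47 members, 37 were called higher in Mbd2-/- mice and 0 were called lower, where 12.0% of all tested genes were called higher and 10.0% lower. The median log2 fold change of the members was 0.35, and 46 of 47 values were above 0, from -0.08 for Ndufa12 to 0.67 for Ndufb4. The median over all tested genes was 0. Among called members the fold ran from 1.18 to 1.59. With the length trend described below removed, 20 members were called higher with coding length (median 0.18) and 14 with the longest transcript (median 0.13). In 32 members all 4 Mbd2-/- libraries lay above all 4 wild-type libraries, a separation seen in 12.1% of all tested genes. Summed over the members, the normalized counts were 37541 to 39217 in wild-type and 42097 to 50820 in Mbd2-/- libraries, without overlap. Hippocampal tissue is a mixture of cell types, and in such bulk samples fewer cells of a type and less RNA per cell cannot be told apart.

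**Figure D1:**
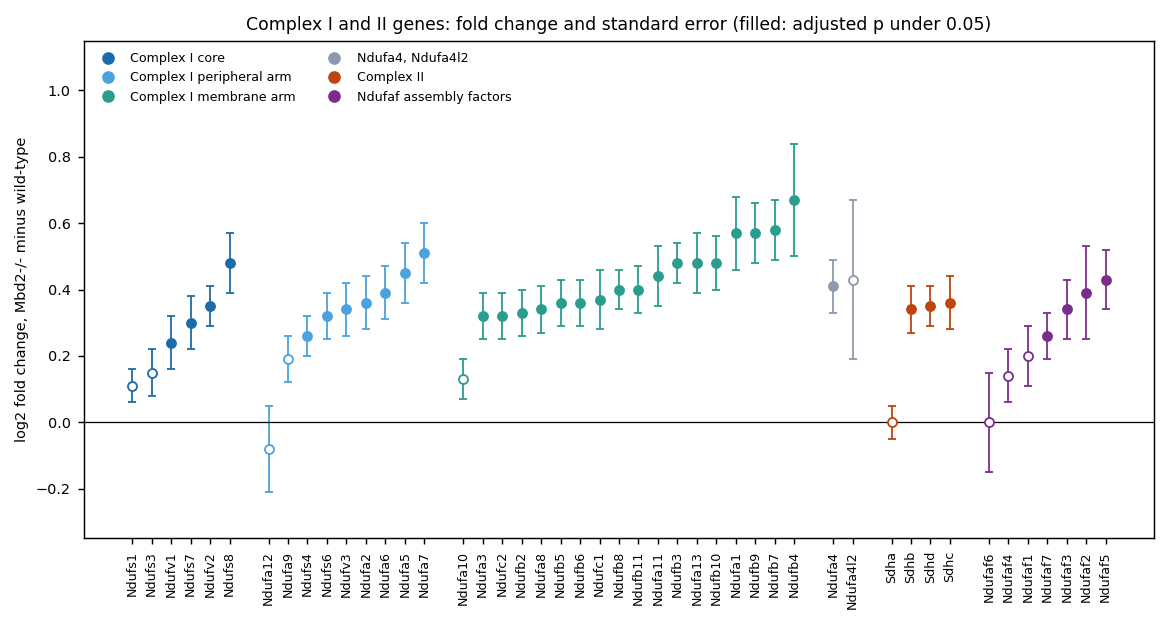
Log2 fold change (Mbd2-/- minus wild-type, y axis) with its standard error for 46 of the genes (x axis), grouped by role and coloured by it, with filled points for an adjusted p under 0.05. Values run from -0.08 to 0.67, with Ndufa12, Sdha and Ndufaf6 at or near 0 and the highest values in the membrane arm.

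The 7 nuclear core subunits of complex I had a median log2 fold change of 0.29, with 5 called higher (12.0% over all tested genes). Ndufs8, which holds iron-sulfur clusters next to the membrane, measured 556.1, 610.9, 588.0 and 584.2 normalized counts in wild-type and 868.3, 845.9, 927.6 and 654.4 in Mbd2-/- libraries. The groups did not overlap, although Mbd2-/- replicate 4 was the lowest of its group. Its log2 fold change was 0.48 (SE 0.09, adjusted p = 0.00135). Ndufv2, an iron-sulfur protein beside the NADH site, measured 1025.2, 1048.0, 979.1 and 1025.6 in wild-type and 1422.5, 1360.8, 1267.1 and 1160.8 in Mbd2-/- libraries. Every Mbd2-/- library was above every wild-type library, with a log2 fold change of 0.35 (SE 0.06, adjusted p = 0.00138). Ndufs7 (log2 fold change 0.30), which holds the last iron-sulfur cluster before ubiquinone, and Ndufv1 (0.24), which binds NADH and the flavin, were also higher. The call of Ndufv1 was the least firm of the 4 named, at an adjusted p of 0.0360, and it was lost in 7 of the 8 fits that left out a library, all but the one without Mbd2-/- replicate 4.

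The other 2 core genes were not called. Ndufs1, the largest core subunit and an iron-sulfur protein, measured 1677.2, 1530.3, 1570.7 and 1554.6 normalized counts in wild-type and 1658.7, 1685.4, 1700.7 and 1778.7 in Mbd2-/- libraries. The groups overlapped through wild-type replicate 1, and here Mbd2-/- replicate 4 was the highest library. The log2 difference was 0.11 (adjusted p = 0.144). Ndufs3, a core subunit without an iron-sulfur cluster, measured 795.9, 759.1, 739.3 and 730.3 in wild-type and 835.1, 932.8, 881.4 and 713.0 in Mbd2-/- libraries. In this gene 3 Mbd2-/- libraries were above the wild-type range and replicate 4 was below it, giving 0.15 (adjusted p = 0.168, 95% interval -0.01 to 0.30).

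Of the 9 accessory subunits of the peripheral arm, 7 were called higher (12.0% over all tested genes), with a median log2 fold change of 0.34. With the length trend described below removed, few of these calls held, 2 of 7 being kept with coding length and 0 with the longest transcript. Ndufa7 measured 551.6, 619.9, 648.1 and 661.8 normalized counts in wild-type and 950.0, 957.5, 930.8 and 704.4 in Mbd2-/- libraries. Mbd2-/- replicates 1 to 3 clustered tightly and replicate 4 lay between them and the wild-type libraries, without overlap. The log2 fold change was 0.51 (SE 0.09, adjusted p = 0.00138). Ndufa5 measured 440.7, 507.1, 547.0 and 483.9 in wild-type and 762.3, 662.1, 726.8 and 568.9 in Mbd2-/- libraries, again without overlap. Its log2 fold change was 0.45 (SE 0.09, adjusted p = 0.00215). The others called were Ndufa6, a LYR-motif subunit that holds the mitochondrial acyl carrier protein, at 0.39, Ndufa2 at 0.36, Ndufv3 at 0.34, the zinc-binding Ndufs6 at 0.32, and Ndufs4, whose loss in mice gives a widely used model of Leigh syndrome, at 0.26.

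Ndufa12, an accessory subunit that takes the place of its relative Ndufaf2 late in assembly, was the single member with a value below 0. It measured 275.8, 411.5, 301.7 and 355.9 normalized counts in wild-type and 385.6, 299.0, 325.2 and 257.5 in Mbd2-/- libraries. The groups overlapped over most of their range, and the log2 difference was -0.08 (adjusted p = 0.680, 95% interval -0.36 to 0.19). Ndufa9, a subunit of the dehydrogenase/reductase fold that binds NADPH, measured 935.3, 1011.2, 928.0 and 927.9 in wild-type and 1201.6, 1079.1, 1123.7 and 952.3 in Mbd2-/- libraries. It lay just outside the threshold, at a log2 difference of 0.19 (adjusted p = 0.0529), and was called without Mbd2-/- replicate 4, by edgeR and with the replicate block.

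The membrane arm showed the highest share of calls, with 17 of its 18 accessory subunits higher and a median log2 fold change of 0.40. In 16 of the 18 the genotypes did not overlap. Over all tested genes these shares were 12.0% and 12.1%. With the length trend described below removed, 11 of the 18 were called with coding length (median 0.25) and 8 with the longest transcript (median 0.19). With the longest transcript the share was higher in complex II, at 2 of 4. Ndufb3 had the smallest adjusted p of all members. It measured 580.0, 613.2, 632.6 and 576.3 normalized counts in wild-type and 877.3, 842.3, 886.2 and 757.2 in Mbd2-/- libraries. The gap between the groups was wider than the spread inside the wild-type group, with a log2 fold change of 0.48 (SE 0.06, adjusted p = 1.75e-04). Ndufb7, a subunit with paired cysteines on the intermembrane space side, measured 470.6, 460.4, 558.8 and 472.7 in wild-type and 757.2, 737.1, 848.0 and 613.1 in Mbd2-/- libraries. Wild-type replicate 3 was the highest of its group and remained below every Mbd2-/- library, and the log2 fold change was 0.58 (SE 0.09, adjusted p = 4.38e-04).

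Ndufb4 had the highest log2 fold change of the members, at 0.67 (SE 0.17, adjusted p = 0.0119), and its values are given because of it. It measured 79.4, 134.7, 101.2 and 100.4 normalized counts in wild-type and 224.7, 131.7, 169.0 and 140.3 in Mbd2-/- libraries. The groups touched, since Mbd2-/- replicate 2 was below wild-type replicate 2. RefSeq lists 2 further genes named after it, Ndufb4b and Ndufb4c, so its reads may be split among near copies and its level is uncertain. Log2 fold changes of 0.57 were measured for the X-linked Ndufa1 and for Ndufb9. Values of 0.48 were found for Ndufb10 and Ndufa13 (also known as Grim19). Ndufa11 reached 0.44, Ndufb8 and the X-linked Ndufb11 each 0.40, and Ndufc1 0.37. Lower values, all called, were those of Ndufb5 and Ndufb6 (0.36 each), Ndufa8 (0.34), Ndufb2 (0.33), and Ndufa3 and Ndufc2 (0.32 each). Ndufa10, a subunit related to nucleoside kinases, was the 1 gene of the membrane arm that was not called. It measured 1125.6, 1167.7, 1133.1 and 1196.1 in wild-type and 1347.2, 1239.1, 1313.4 and 1151.2 in Mbd2-/- libraries. Only replicate 4 of the Mbd2-/- libraries fell inside the wild-type range, and the log2 difference was 0.13 (adjusted p = 0.136).

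Ndufa4 was first described in complex I and is now placed in complex IV, and Ndufa4l2 is its hypoxia-induced relative. Ndufa4 measured 1287.5, 1609.3, 1465.8 and 1421.8 normalized counts in wild-type and 2129.9, 1979.0, 1949.3 and 1637.5 in Mbd2-/- libraries. Its groups were separate, by a small margin at replicate 4, with a log2 fold change of 0.41 (SE 0.08, adjusted p = 0.00208). Ndufa4l2 measured 22.5, 13.5, 14.6 and 12.7 in wild-type and 20.4, 21.9, 27.1 and 16.3 in Mbd2-/- libraries. With so few reads, the log2 difference of 0.43 had a 95% interval of -0.09 to 0.95 and an adjusted p of 0.224.

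In complex II, 3 of the 4 subunits were higher by nearly the same amount (12.0% over all tested genes), whereas no difference was detected in Sdha. Sdha (chr13:74459702-74487728 on mm9, minus strand), the flavoprotein that oxidizes succinate, measured 4022.9, 4432.9, 4051.1 and 4127.9 normalized counts in wild-type and 4219.0, 4253.3, 4002.3 and 4168.7 in Mbd2-/- libraries. The groups overlapped over most of their range, with means of 4159 ± 188 and 4161 ± 111 (SD, n = 4). The log2 difference was 0.00 with a 95% interval of -0.10 to 0.10 (adjusted p = 0.987).

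Sdhb (chr4:140517118-140535108, plus strand), the iron-sulfur subunit, measured 1354.9, 1197.8, 1401.1 and 1334.7 in wild-type and 1755.8, 1708.3, 1764.4 and 1474.1 in Mbd2-/- libraries. The groups did not overlap, and the log2 fold change was 0.34 (SE 0.07, adjusted p = 0.00234). Sdhc (chr1:173057296-173080734, minus strand), a membrane anchor, measured 890.3, 901.3, 883.3 and 906.1 in wild-type and 1142.9, 1143.1, 1364.4 and 968.7 in Mbd2-/- libraries. Its wild-type libraries were nearly equal while its Mbd2-/- libraries spread widely, all of them higher, at 0.36 (SE 0.08, adjusted p = 0.00486). Sdhd (chr9:50404443-50411954, minus strand), the other anchor, measured 884.3, 898.3, 872.4 and 894.4 in wild-type and 1214.4, 1148.6, 1138.0 and 1035.9 in Mbd2-/- libraries. It too was separated by genotype, at 0.35 (SE 0.06, adjusted p = 7.15e-04).

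**Figure D2:**
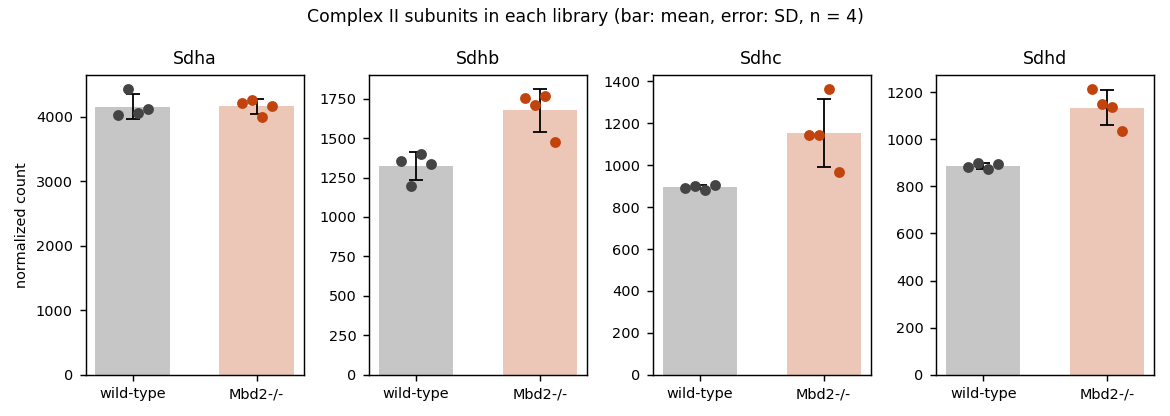
Normalized count (y axis, from 0) of the 4 complex II genes in each library (points), with the mean (bar) and SD (error bar, n = 4) of each genotype. Sdha means are 4159 and 4161, while all Mbd2-/- points of Sdhb, Sdhc and Sdhd lie above the wild-type points.

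Ratios within a library do not depend on its scaling, so each of the 3 genes was set against Sdha, a comparison chosen after the values were seen. The Sdhb to Sdha ratio was 0.319 ± 0.0339 in wild-type and 0.403 ± 0.0367 in Mbd2-/- libraries, the Sdhc ratio 0.216 ± 0.00826 and 0.278 ± 0.0454, and the Sdhd ratio 0.214 ± 0.00755 and 0.273 ± 0.0179 (SD, n = 4). The differences were 0.34, 0.35 and 0.35 on the log2 scale, with no overlap between genotypes. Since the ratios were formed after these values were known, they are a description and no test is given. The median coding transcript of Sdha is 2900 bases long, and those of Sdhb, Sdhc and Sdhd are 1142, 815 and 1287 bases, which matters for the length trend described below.

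Of the 7 assembly factors, 4 were called higher and 2 were without overlap, with log2 fold changes from 0.00 to 0.43 and a median of 0.26. Over all tested genes 12.0% were called higher and 12.1% were higher without overlap. Ndufaf5, which hydroxylates an arginine of Ndufs7, measured 223.3, 255.8, 263.5 and 298.0 normalized counts in wild-type and 338.4, 321.0, 369.8 and 370.0 in Mbd2-/- libraries. The groups did not overlap, at 0.43 (SE 0.09, adjusted p = 0.00308). Ndufaf7, a protein arginine methyltransferase, measured 326.7, 285.1, 309.0 and 335.1 in wild-type and 357.5, 388.7, 371.4 and 390.2 in Mbd2-/- libraries. It was also separated, with a smaller log2 fold change of 0.26 (SE 0.07, adjusted p = 0.0164), a call lost without wild-type replicate 2 or Mbd2-/- replicate 2. In both genes Mbd2-/- replicate 4 was the highest library, in Ndufaf5 level with replicate 3.

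Ndufaf3, which works with Ndufaf4 on the ubiquinone-binding part of the complex, measured 262.3, 256.6, 256.2 and 292.1 in wild-type and 370.3, 331.0, 365.0 and 289.3 in Mbd2-/- libraries. Its groups overlapped through wild-type replicate 4 and Mbd2-/- replicate 4, and the log2 fold change was 0.34 (SE 0.09, adjusted p = 0.0110). Ndufaf2, the relative of Ndufa12, measured 91.4, 100.1, 87.5 and 73.3 in wild-type and 131.5, 121.6, 122.7 and 88.4 in Mbd2-/- libraries. At 0.39 (SE 0.14) its adjusted p of 0.0499 was at the threshold, and the call was lost in 6 of the 8 fits that left out a library, all but those without wild-type replicate 2 or Mbd2-/- replicate 4, and in 6 of 9 other settings.

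The remaining 3 assembly factors were not called. Ndufaf1, a member of the complex that builds the membrane arm, measured 230.8, 226.5, 185.1 and 203.4 in wild-type and 226.0, 231.4, 253.4 and 261.4 in Mbd2-/- libraries (log2 difference 0.20, adjusted p = 0.114). Ndufaf4 measured 251.8, 304.0, 267.1 and 278.8 in wild-type and 287.3, 294.5, 301.2 and 334.4 in Mbd2-/- libraries (0.14, adjusted p = 0.207). Both overlapped between genotypes, with Mbd2-/- replicate 4 the highest library. Ndufaf6 measured 74.9, 98.6, 87.5 and 91.9 in wild-type and 95.8, 96.9, 103.6 and 62.5 in Mbd2-/- libraries. Its difference was 0.00 with a 95% interval of -0.31 to 0.32, the widest interval among the assembly factors.

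Set beside the assembly factors, 33 of the 40 subunits were higher, 30 without overlap (12.0% and 12.1% over all tested genes), with a median log2 fold change of 0.36. The mean log2 level over the wild-type mean was 0.45, 0.35, 0.45 and 0.15 for the subunits in Mbd2-/- replicates 1 to 4, and 0.27, 0.25, 0.33 and 0.15 for the assembly factors. Subunits thus exceeded assembly factors by 0.18, 0.10 and 0.12 in replicates 1 to 3 and by 0.00 in replicate 4, and in the wild-type libraries the same difference was -0.03 to 0.03. No test was made between the lists, whose genes are not replicates of a condition. The subunits have shorter coding transcripts (median 889.2 against 1082 bases). With the coding length trend described below removed, both lists had a median of 0.18, so no difference remained. With the longest transcript the medians were 0.14 and 0.10. The assembly factors had mean wild-type counts of 88.1 to 314.0, against a median of 639.1 over all members, which also limits a comparison of calls. Mbd2-/- replicate 4 was the lowest of the 4 Mbd2-/- libraries in 37 of 40 subunits and in 3 of 7 assembly factors.

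**Figure D3:**
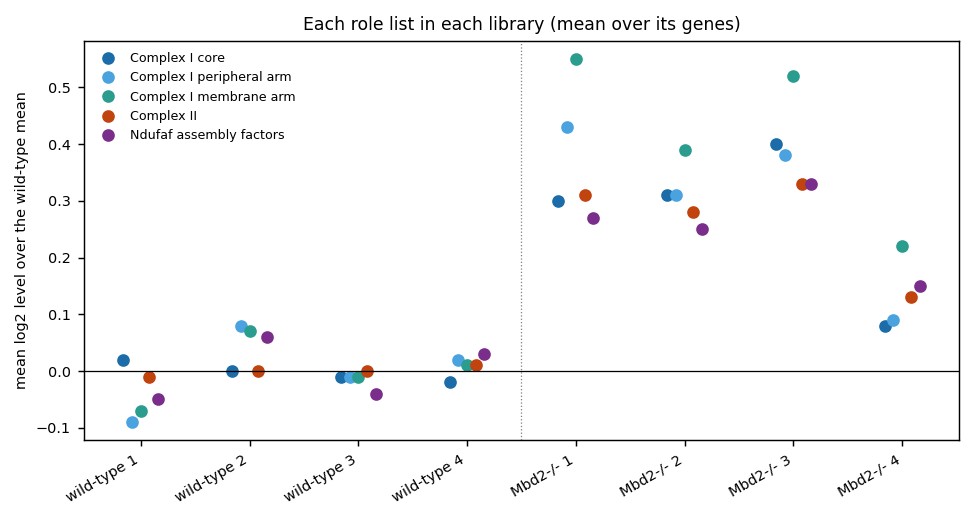
Mean log2 level over the wild-type mean (y axis) of 5 role lists in each of the 8 libraries (x axis), 1 point per list. Mbd2-/- replicates 1 to 3 are well above 0 in every list with the membrane arm highest, and replicate 4 lies between them and the wild-type libraries.

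Without Mbd2-/- replicate 4, 40 members were called higher, Ndufa9, Ndufa10 and Ndufs3 being added and none lost, while the share of all tested genes called higher rose to 17.9%. The fits that left out any other library called 34 or 35 members higher, and 1170 to 1557 of all 14504 tested genes.

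Per kb of the median coding transcript, the wild-type levels ran from 16.5 ± 4.68 normalized counts per kb for Ndufa4l2 to 2979.3 ± 88.90 for Ndufb8 (SD, n = 4). Ndufb8 and Ndufa4 (2939.3 ± 269.60) did not differ beyond their spread. Levels per kb depend on the length taken, so the order of genes is uncertain where annotated transcripts differ in length. The longest transcript has 2142 bases for Ndufb8 (median coding 419), 3171 for Sdhc (815) and 3632 for Ndufaf4 (673). In complex II, Sdha stood at 1434.0 ± 64.90 per kb in wild-type, above Sdhb at 1157.7 ± 76.60, Sdhc at 1098.5 ± 12.70 and Sdhd at 689.5 ± 9.01, with Sdhb and Sdhc within their spread of each other. In Mbd2-/- libraries Sdha (1434.8 ± 38.40), Sdhb (1467.3 ± 119.60) and Sdhc (1416.9 ± 198.90) were within their spread, and Sdhd remained the lowest at 881.3 ± 57.30. The assembly factors stood at 81.5 (Ndufaf6) to 409.2 (Ndufaf4) per kb in wild-type, among the lower levels of the 47 genes.

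**Figure D4:**
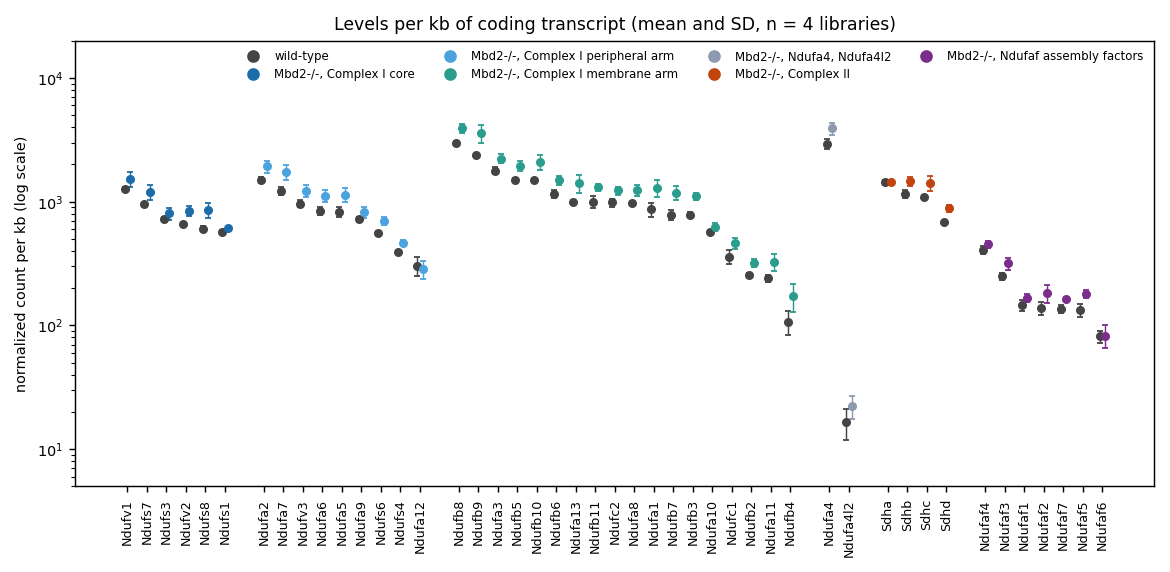
Normalized count per kb of median coding transcript (y axis, log scale) for 46 of the genes (x axis) by role, with the mean and SD of 4 wild-type (dark) and 4 Mbd2-/- (coloured) libraries. Ndufb8 and Ndufa4 are highest, near 2979.3 and 2939.3 per kb in wild-type, and the Ndufaf genes lie at 409.2 or lower.

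Transcript length moved with the difference between genotypes in Mbd2-/- replicates 1 to 3. Over 13741 genes, the rank correlation of median coding transcript length with the log2 deviation from the wild-type mean was -0.452, -0.414, -0.438 and -0.12 in Mbd2-/- replicates 1 to 4 and -0.061 to 0.06 in wild-type libraries, given as a description since genes are not independent replicates. Shorter transcripts were thus relatively higher in those 3 libraries. The members are short, with a median of 960 bases, and among the 3364 tested genes of at most 1500 bases 28.2% were called higher. Of 18 members up to 700 bases 17 were called higher (227 of all 596 tested genes of this length), of 19 from there to 1500 bases 13 (722 of 2768), and of 10 from there to 4000 bases 7 (642 of 7611). In each bin the share of members called was above that of all genes of the same length, a comparison made without a test.

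With a smooth trend on this length removed from each library, 20 of the 47 members were still called higher and 0 lower, against 8.06% of the genes tested called higher, and the median log2 fold change was 0.18. All 20 were among the 37 called without that step. They were 18 of 40 subunits (median 0.18) and 2 of 7 assembly factors (median 0.18). By role, the membrane arm kept 11 of its 17 calls, the core 3 of 5 and the peripheral arm 2 of 7 (Ndufa7 and Ndufa5). Ndufb9 (log2 fold change 0.36, adjusted p = 9.67e-04), Ndufb3 (0.29, 0.00150), Ndufb2 (0.32, 0.00192) and Ndufb7 (0.37, 0.00197) kept the smallest adjusted p-values. In complex II, Sdhd (0.22, adjusted p = 0.00714) and Sdhb (0.19, 0.0304) stayed called, Sdhc did not (0.17, 0.0654), and Sdha was at 0.03. With the longest annotated transcript as the length, 14 members were called and the median was 0.13, against 8.05% of genes. They were 13 subunits (median 0.14) and 1 assembly factor (median 0.10), with 8 in the membrane arm, 3 in the core and 0 in the peripheral arm, whose median was 0.05. The complex II calls then differed: Sdhc stayed called (0.35, adjusted p = 0.0027), Sdhb did not (0.13, 0.111), and Sdha was at -0.02. What lay behind the length trend was not tested.

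**Figure D5:**
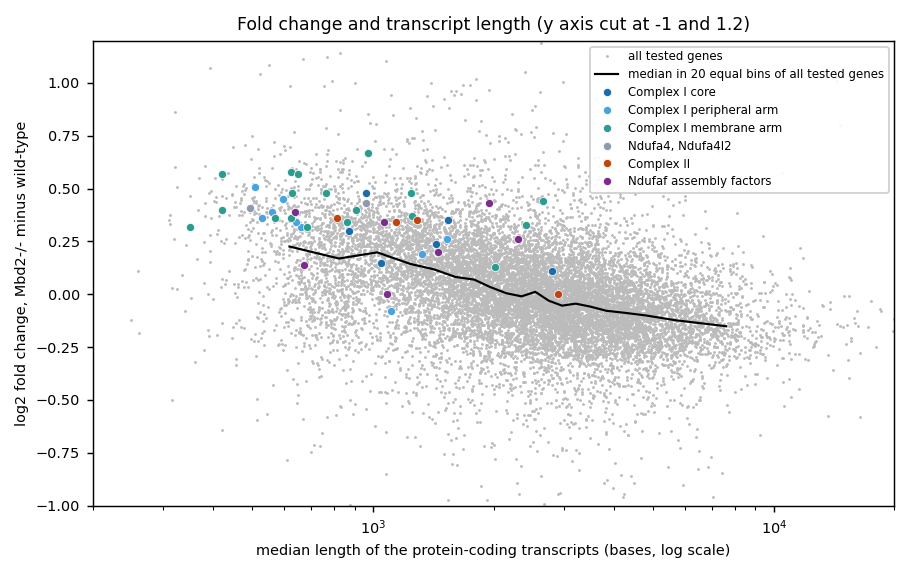
Log2 fold change (Mbd2-/- minus wild-type, y axis, from -1 to 1.2) against the median length of the coding transcripts (x axis, bases, log scale) for all tested genes (grey), their median in 20 bins of equal gene number (line) and 46 members by role (coloured). Short genes sit higher, and most members up to 700 bases, with a median of 0.39, lie above the line.

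Genes of the rest of the respiratory chain were also higher. Of 44 tested genes taken by symbol for complexes III to V and cytochrome c, not all necessarily subunits, 36 were called higher and 0 lower. Over all tested genes the shares were 12.0% and 10.0%, and the median log2 fold change of these 44 genes was 0.37. Their coding transcripts are short too, with a median of 668.5 bases, and with the coding length trend removed 23 were called higher (8.06% over all genes), with a median of 0.19, and with the longest transcript as the length 18 were called (8.05%), with a median of 0.13. Cox8b, the heart and skeletal muscle form of a complex IV subunit, measured 12.0, 9.78, 10.9 and 12.7 normalized counts in wild-type and 91.9, 45.7, 71.7 and 49.0 in Mbd2-/- libraries. Its counts were low but far apart, at a log2 fold change of 2.36 (SE 0.23, adjusted p = 8.7e-06). Uqcrh, the hinge protein of complex III, measured 1348.9, 1257.9, 1392.0 and 1326.2 in wild-type and 1910.3, 1898.5, 2035.4 and 1749.0 in Mbd2-/- libraries, a log2 fold change of 0.51 (SE 0.06, adjusted p = 3.46e-05).

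Other genes of mitochondrial metabolism were compared in the same fit. Of 13 enzymes of the tricarboxylic acid cycle other than complex II, 4 (30.8%) were called higher and 0 lower (median 0.13). Over all tested genes these shares were 12.0% and 10.0%. With the coding length trend removed 4 of the 13 were called higher, against 8.06% over all genes. The smallest adjusted p was that of Suclg1, a subunit of succinyl-CoA ligase, at 0.39 (adjusted p = 3.97e-04). Of 14 further genes of complexes I and II that the symbol rule does not take, mostly assembly factors, 3 (21.4%) were called higher and 0 lower (median 0.16). This share lies between the 12.0% over all tested genes and the 28.2% among those of at most 1500 bases. The 3 were Sdhaf4, which chaperones Sdha, at 0.39 (adjusted p = 0.00476), Lyrm2 at 0.43 (adjusted p = 0.00609) and Timmdc1, an assembly factor of the membrane arm, at 0.28 (adjusted p = 0.0174), a call lost without wild-type replicate 2 or Mbd2-/- replicate 2. All 3 calls were lost with the coding length trend removed (adjusted p = 0.150, 0.191 and 0.114) and with the longest transcript as the length (0.631, 0.301 and 0.324).

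Of 14 nuclear regulators of mitochondrial genes, 0 were called higher and 3 lower (10.0% over all tested genes), with a median log2 fold change of -0.01. With the coding length trend removed 1 was called lower. Pprc1, a coactivator of the PGC-1 family, measured 422.7, 401.0, 443.0 and 416.9 normalized counts in wild-type and 274.5, 319.2, 353.8 and 305.6 in Mbd2-/- libraries (log2 fold change -0.43, adjusted p = 0.00148). Ppargc1b, of the same family, measured 274.3, 273.9, 298.1 and 262.4 in wild-type and 235.0, 246.0, 210.4 and 216.2 in Mbd2-/- libraries (-0.29, adjusted p = 0.0164), a call lost without wild-type replicate 3. Both were lower without overlap between genotypes. The third was Gabpb2, a partner of the ETS factor Gabpa, at -0.30 (adjusted p = 0.0368), a call lost in 7 of the 8 fits that left out a library, all but the one without Mbd2-/- replicate 4, and in 4 of 9 other settings. Factors whose letters were searched in the promoters were not called, with log2 differences of -0.04 for Nrf1, -0.02 for Gabpa and 0.00 for Yy1, and Ppargc1a stood at -0.05 and Tfam at 0.03.

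Markers of other cell types and regions also moved with genotype, and their counts stand against 12.0% of all tested genes called higher and 10.0% lower. All 16 choroid plexus markers were higher, with summed normalized counts of 15001 to 16285 in wild-type and 32253 to 39559 in Mbd2-/- libraries, and the 3 most expressed were Ttr (log2 fold change 1.32), Kl (0.56) and Clic6 (0.75). Of 12 thalamus markers 10 were lower, with sums of 5896 to 6010 against 3940 to 4566, and the 3 most expressed were Rora (-0.35), Prkcd (-0.61) and Plekhg1 (-0.40). Of 8 markers each, 6 were higher for astrocytes (sums 115134 to 117866 against 127035 to 150301), 5 for oligodendrocytes (77936 to 79314 against 91959 to 98163) and 6 for microglia (4992 to 5252 against 5732 to 6507). Among the most expressed were Slc1a2 (0.17, not called), Aldoc (0.31) and Slc1a3 (0.30) for astrocytes, Mbp (0.41) and Cnp (0.16, not called) for oligodendrocytes, and Csf1r (0.13, not called) and Cx3cr1 (0.20) for microglia. Of 10 hippocampus markers 4 were lower and 1 higher (14888 to 15396 against 14181 to 14730), and 1 lower with the coding length trend removed. Of 7 endothelium markers 2 were higher (2224 to 2314 against 2353 to 2528), and of 10 neuron markers 3 were lower, with sums that overlapped. The most expressed hippocampus markers were Fibcd1 (-0.29), Neurod2 (-0.11, not called) and Prox1 (-0.20), and those of endothelium Flt1 (-0.10, not called), Cldn5 (0.38) and Slco1a4 (0.24). Alas2, the 1 blood marker measured, was lower at -0.23. Leaving out 1 library ended the call of Prox1 in 5 of the 8 fits, those of Cx3cr1, Slco1a4 and Alas2 in 3 each and that of Rora in 1. The hippocampal markers were present in every library, and no marker of these lists was at 0. Ttr was high in all Mbd2-/- libraries including replicate 4 (27303.9, against 32556.7 to 34941.3 in the others), where the respiratory genes were nearest to the wild-type level. The part of cell composition in the respiratory gene result was not tested.

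Of the 47 members, 13 overlap another annotated gene, 11 of them on the opposite strand, such as Ndufb5 with Mrpl47, Ndufb11 with Rbm10 and Sdha with Gm16125. Whether strand was used in counting is not given in the sources used here, so reads of such pairs may be shared.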

How the data were processed

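Hippocampal total RNA depleted of ribosomal RNA was sequenced in 4 wild-type and 4 Mbd2-/- libraries (100-base paired reads). The authors removed duplicate reads, aligned to mm9 with STAR and used DESeq2. The deposited signal values are gene counts divided by a size factor per library, not transformed, and 100% of them came out as whole reads within 0.01. The deposited columns of the authors' own comparison (mean, fold change, error, statistic, p-values) were not used. The counter and its strand setting are not given in the sources used here. Genotype was taken from the labels.

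Genes with a mean of at least 10 normalized counts were tested with limma 3.58.1 (R 4.3.3) on log2(value + 1), its prior variance following the mean level (trend) and outlying genes moderated (robust). Fold changes are on this scale and understate changes of low genes. edgeR 4.0.16 (quasi-likelihood) and DESeq2 1.42.0 on the recovered reads, other scalings, a pseudocount of 5, no filter, a replicate block, removed length trends (lowess span 0.3) and leaving out each library were alternatives. Over all 14504 genes edgeR called 1809 higher and 1422 lower, and limma 1735 and 1450. The scripts were tested on simulated data. No library was a duplicate of another (chi-square per gene 2.07 to 16.2). Lengths and positions came from GENCODE vM1 on mm9. Nothing but library labels separates the replicates, so p-values measure the spread between these pools.

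Counts and medians cover all genes, but 4 genes are not reported here by name. Members and lists were chosen with earlier results of these data known. Values in every library are given for Sdh and Ndufaf genes, Ndufa4 and Ndufa4l2, in each complex I list the 2 genes of smallest adjusted p and all not called, and genes with a sign opposite to the median. Of other lists the 2 genes of smallest p are named, and of marker lists the 3 most expressed where sums did not overlap. Libraries with the same number did not deviate together (correlations -0.103, -0.057, 0.0742 and 0.0355), so numbers were not taken as pairs.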

Additional observations from a re-analysis of the deposited data

Results flagged for a closer look

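The 46 members reported by name and Mbd2 were checked with Dixon's criterion, and genes of other lists were not. In 4 of 94 groups of 4 libraries 1 library was far from the other 3, which chance alone gives in about 1 of 20 groups. Ndufa7 measured 704.4 normalized counts in Mbd2-/- replicate 4 and 930.8 to 957.5 in the other Mbd2-/- libraries. Ndufa9 measured 1011.2 in wild-type replicate 2 and 927.9 to 935.3 in the others of its group. Ndufaf3 measured 292.1 in wild-type replicate 4, against 256.2 to 262.3. Ndufb7 measured 558.8 in wild-type replicate 3, against 460.4 to 472.7.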

How the results depend on the processing

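The number of members called higher was 36 to 38 with edgeR, DESeq2, TMM scaling, total count scaling, a pseudocount of 5, no filter and the replicate block, and 0 were called lower in each. Over all genes these settings called 1561 to 1809 higher, of 14504 genes or, with no filter, of 19201. Among these settings the only call lost was Ndufaf2 and the only one gained was Ndufa9. The replicate block gave 38. With the length trend removed, 14 members (13 subunits and 1 assembly factor) were called, with medians of 0.13, 0.14 and 0.10. With the trend on coding transcript length removed, a setting chosen after the data were seen, 20 (18 and 2) were called, with medians of 0.18, 0.18 and 0.18. By construction both settings take out whatever in the members follows length. Leaving out 1 library gave 34 to 40 members, 32 to 36 subunits and 2 to 4 assembly factors, the lowest without Mbd2-/- replicate 2. Mbd2 had log2 fold changes of -0.35 to -0.56 when 1 library was left out, and lost its call without wild-type replicate 3 (-0.39, adjusted p = 0.0625), Mbd2-/- replicate 1 (-0.40, 0.0542) or Mbd2-/- replicate 2 (-0.39, 0.0579). The 3 ratios to Sdha kept their direction with a pseudocount of 5 and without each library in turn. Depth limits the members with few counts, such as Ndufa4l2.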
